A study of Mus musculus with 24 samples.

Results

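RNA of 10 subunits of Polycomb repressive complex 1 (PRC1) was followed in naive mouse embryonic stem cells (ESCs) made quiescent, treated or mutated in 6 ways. The members were the rows of the 6 deposited FPKM tables whose Ensembl identifier mapped to Rnf2, Ring1, Pcgf1, Pcgf2, Bmi1, Pcgf3, Pcgf5, Pcgf6, Cbx7 or Kdm2b, 10 of the 55385 Ensembl genes in each table. FPKM, fragments per kilobase of transcript and scaled to the library's total, is a level per length, so that genes can be compared within a library. All 10 members passed the filter on low values in every table, which asked for 0.1 FPKM or more in 2 or more of its libraries.

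PRC1 is an enzyme of chromatin that attaches ubiquitin to histone H2A. Each complex holds a RING protein, RNF2 or RING1, and 1 of 6 PCGF proteins, which sets the kind of complex. Canonical PRC1 has PCGF2 or BMI1 (PCGF4) together with a CBX and a PHC protein, and its CBX chromodomain binds the H3K27me3 mark that PRC2 makes. Variant PRC1 has any of the PCGF proteins with RYBP or YAF2 in place of CBX, and does not need that mark. Among variant complexes, PCGF1 acts with KDM2B, which binds unmethylated CpG islands, PCGF3 and PCGF5 form a closely related pair, and PCGF6 acts with MGA, MAX and E2F6. In mouse ESCs, PCGF2 and CBX7 are known as the main canonical subunits, while BMI1 and other CBX proteins are known to gain weight upon differentiation.

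The study asked how quiescence and the H3K27me3 mark bear on the fate of naive ESCs. E14 cells, a male line kept in 2i/LIF, were stained with TMRM, a dye taken up by mitochondria according to their membrane potential (ΔΨm), and the cells with the lowest signal (low-ΔΨm, the spontaneous quiescent ESCs) were compared with those of the highest. Further tables hold naive ESCs with a pool of siRNAs against Mat2a (siMat2a), which encodes the enzyme making the methyl donor S-adenosylmethionine (SAM), against control siRNA (siCtr); with etomoxir (ETO), which blocks fatty acid oxidation, against water (H2O); with a small-molecule inhibitor of MYC (MYCi) against DMSO; and low-ΔΨm cells cultured with SAM at 50 or 25 µM, with no group without SAM in that table. The last table holds male Eed-null (EedKO, Eed -/-) against heterozygous (Het, Eed fl/-) naive ESC lines, derived on fibroblast feeders from 129/S1 blastocysts of a cross with Protamine-Cre, in which both genotypes lack at least 1 functional Eed allele and EED is a core subunit of PRC2. Every group had 2 libraries, 24 in all, which the study calls independent biological replicates. The cultures behind them are not stated, and the p-values then cover only how far the libraries of a group differ, which may be technical. Where libraries are said below not to overlap, the share of all genes that stood apart in that way is not given.

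All 10 are protein-coding genes, placed here in GRCm38. The RING genes are Rnf2 at chr1:151458004-151500955 (minus strand) and Ring1 at chr17:34020792-34024680 (minus strand). The canonical genes are Pcgf2 at chr11:97688823-97700497 (minus strand), Bmi1 at chr2:18677018-18686629 (plus strand) and Cbx7 at chr15:79915807-79971119 (minus strand). The variant genes are Pcgf1 at chr6:83077869-83080855 (plus strand), Pcgf3 at chr5:108461232-108506976 (plus strand), Pcgf5 at chr19:36348309-36460970 (plus strand), Pcgf6 at chr19:47033617-47050906 (minus strand) and Kdm2b at chr5:122870665-122989823 (minus strand).

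The libraries held an estimated 27.2 to 64.2 M fragments over Ensembl genes. The member with the fewest, Ring1, rested on 132 to 457 fragments per library, a counting error of up to 8.7%, and Rnf2 rested on 2273 to 12334. Mat2a was lower by 2.04 on the log2 scale in siMat2a (SE 0.44, limma adjusted p = 3.62e-05) and Eed by 2.03 in EedKO (SE 0.09, adjusted p = 0.000995). The 7 markers of naive ESCs were all present in every group. In the Mat2a, FAOi (etomoxir) and MYCi tables the median gene was lower in the treated group, by 0.63, 0.66 and 0.65 on the log2 scale. Each fold change is therefore given on the deposited scale and after median-of-ratios scaling of the libraries of a table, which moved the median of all genes by 0.66, 0.70 and 0.68 in these 3 tables, by 0.40 in the SAM table, by -0.10 in the Eed table and by -0.04 in the sorted cells. Shares and ratios within a library do not depend on that choice. In such bulk samples, fewer cells of a type and less RNA per cell cannot be told apart.

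Promoter sequence was examined because a MYC inhibitor was among the treatments. The E-box CACGTG, the letters bound by MYC with MAX and identical on both strands, was searched in windows from 250 bases before to 50 after each start in RefSeq (GRCm38.p6). Of the 10 members, 9 had such windows, 14 in all, and 2 windows held the E-box, those of Bmi1 and Pcgf2, against 7.15% of all 32851 windows. These 2 genes encode the paralogous canonical PCGF proteins and are shown because their ratio within a library is described below. The first base of the E-box lay at position -215 from the start of Bmi1, in the window chr2:18676768-18677067 on the plus strand, and at position -137 from that of Pcgf2, in the window chr11:97699599-97699898 on the minus strand. Capitals mark the E-box.
Bmi1: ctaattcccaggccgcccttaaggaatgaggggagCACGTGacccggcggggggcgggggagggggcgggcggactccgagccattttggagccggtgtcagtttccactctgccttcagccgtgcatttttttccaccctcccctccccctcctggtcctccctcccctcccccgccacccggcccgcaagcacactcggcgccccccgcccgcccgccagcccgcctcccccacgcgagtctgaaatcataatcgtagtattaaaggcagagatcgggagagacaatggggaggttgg
Pcgf2: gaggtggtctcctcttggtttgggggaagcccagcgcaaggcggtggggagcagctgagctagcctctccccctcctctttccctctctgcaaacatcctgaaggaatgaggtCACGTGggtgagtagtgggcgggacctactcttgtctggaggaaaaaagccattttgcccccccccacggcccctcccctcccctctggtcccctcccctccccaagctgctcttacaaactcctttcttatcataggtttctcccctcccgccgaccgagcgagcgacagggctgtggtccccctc
The 14 windows held 5 to 49 CpG dinucleotides where the median of all windows was 7. The Bmi1 window had 23, more than 78.5% of all windows, and the Pcgf2 window had 10, more than 56.5%. A match of letters is a description and not a bound site.

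By mean FPKM, Rnf2 and Pcgf2 were the 2 highest members in every control group. The Het line and the low-ΔΨm cells at 25 µM SAM, which are not unperturbed, count among these groups. In siCtr cells Rnf2 had a mean FPKM of 47.5 ± 0.62 (SD, n = 2) and Pcgf2 of 36.7 ± 0.52, followed by Bmi1 at 21.3 ± 1.25, Pcgf3 at 14.5 ± 0.09, Pcgf1 at 12.6 ± 0.05 and Pcgf6 at 11.0 ± 0.93. Kdm2b followed at 7.94 ± 0.26 and Cbx7 at 4.83 ± 0.22, while Ring1 at 1.35 ± 0.01 and Pcgf5 at 0.455 ± 0.049 lay far below. No neighbours in this order overlapped between libraries in siCtr cells. In water-treated cells Rnf2 overlapped Pcgf2, and Pcgf3, Pcgf6, Pcgf1 and Kdm2b overlapped their neighbours. In DMSO-treated cells Pcgf3 overlapped Pcgf6 and Pcgf1 overlapped Kdm2b. High-ΔΨm cells had another order, with Pcgf2 at 14.4 ± 1.52 and Rnf2 at 13.9 ± 1.88, which overlapped, followed by Cbx7 at 7.29 ± 0.28, which overlapped Pcgf6. In the Het line Cbx7 followed them at 13.8 ± 0.80 and Bmi1 stood below Pcgf6 at 7.32 ± 0.25, Pcgf5 stood above Ring1 at 2.04 ± 0.04, and no neighbours overlapped. The tables were normalized separately, so that levels are not tested between them.

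**Figure D1:**
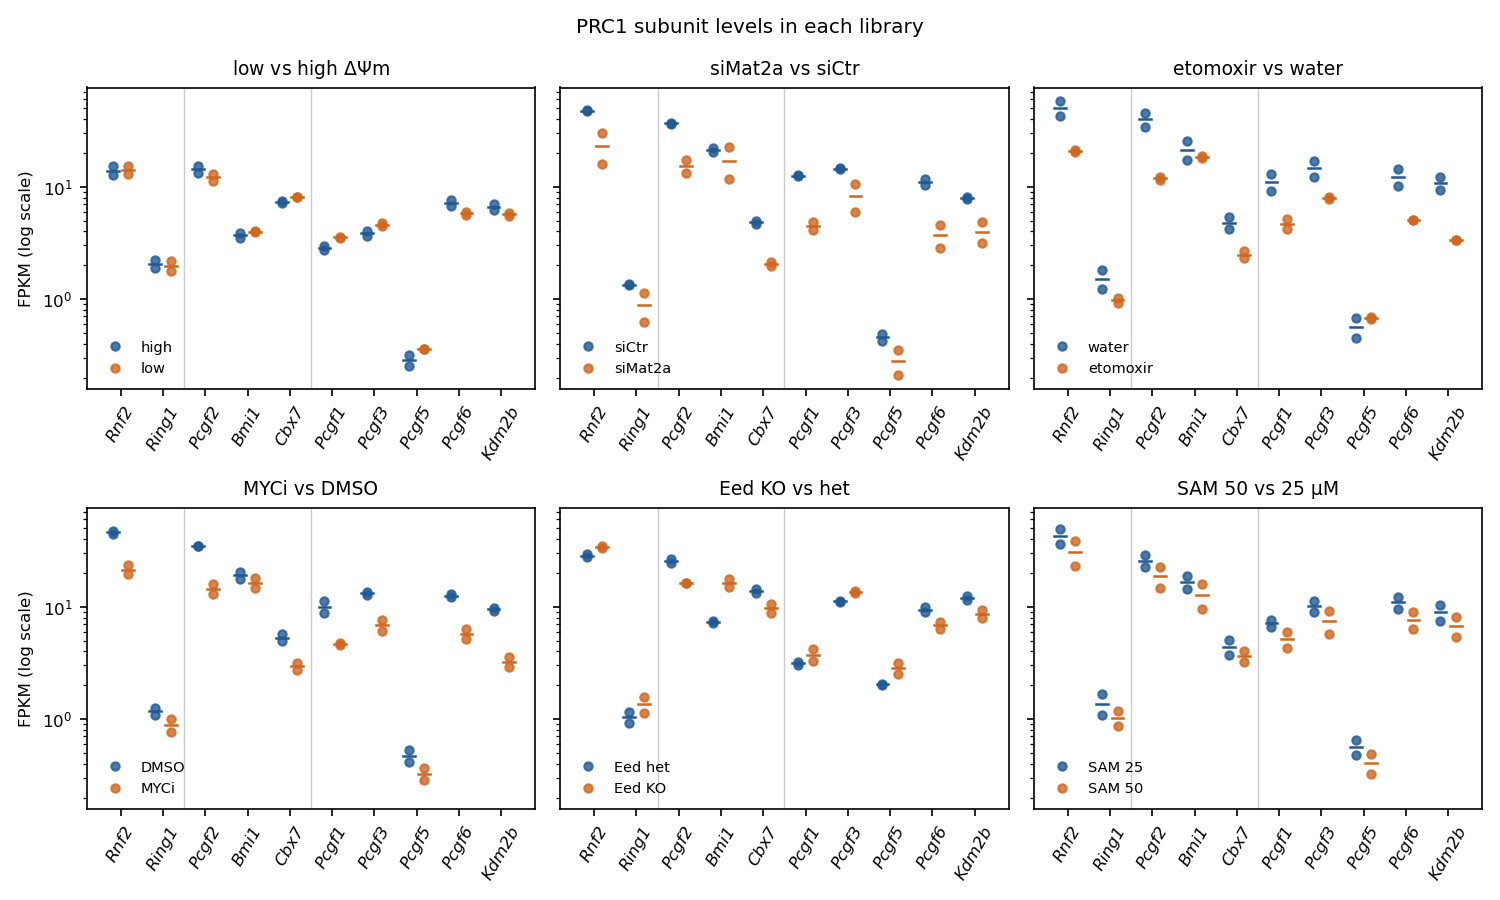
FPKM (log axis) of the 10 PRC1 members in each of the 24 libraries, 1 panel per table, with the shared RING subunits left, the canonical subunits in the middle and the variant subunits right. Points are libraries and lines group means; Rnf2 and Pcgf2 lie highest in the control groups, and by group mean Bmi1 lies below Pcgf2 in each control group and above it in siMat2a, etomoxir, MYCi and EedKO.

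The RING subunits carry the catalytic activity of the complex. Rnf2 made up 97.2% ± 0.006 (SD, n = 2) of the summed FPKM of Rnf2 and Ring1 in siCtr, 97.1% ± 0.19 in water and 97.5% ± 0.33 in DMSO, and 87.2% ± 0.24 in high-ΔΨm cells. Rnf2 had FPKM of 47.9 and 47.0 in siCtr and 30.1 and 15.9 in siMat2a, 42.9 and 57.7 in water and 21.3 and 20.2 in etomoxir, and 47.5 and 44.8 in DMSO and 19.5 and 23.3 in MYCi. The groups did not overlap in any of these 3 tables. On the deposited scale Rnf2 was lower by 1.12 (SE 0.45, adjusted p = 0.0294), 1.26 (SE 0.31, adjusted p = 0.000178) and 1.11 (SE 0.17, adjusted p = 0.000242) in turn. After scaling the fall of Rnf2 was 0.47 with etomoxir (SE 0.05, adjusted p = 0.00238) and 0.34 with MYCi (SE 0.04, adjusted p = 0.00349), while the difference in siMat2a of -0.37 (SE 0.14) had an adjusted p of 0.096. Ring1 passed the test in no comparison on either scale. The ratio of Rnf2 to Ring1 was 35.3 ± 0.08 in siCtr and 26.0 ± 0.61 in siMat2a, 33.6 ± 2.26 in water and 21.3 ± 0.61 in etomoxir, and 39.5 ± 5.39 in DMSO and 24.3 ± 1.38 in MYCi, without overlap of the libraries. In the sorted cells, the Eed table and the SAM table Rnf2 and Ring1 did not pass the test, and the ratio overlapped between the Eed lines and between the SAM doses.

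The 2 canonical PCGF genes, paralogues that take the same place in the complex, went apart. Within a library the ratio of Bmi1 to Pcgf2 was higher in the treated, quiescent or mutant group of 5 of the 6 tables, without overlap. Bmi1 had 0.534 ± 0.045 (SD, n = 2) of the FPKM of Pcgf2 in water and 1.54 ± 0.03 in etomoxir. The ratio was 0.548 ± 0.057 in DMSO and 1.15 ± 0.00455 in MYCi, and 0.580 ± 0.026 in siCtr and 1.09 ± 0.28 in siMat2a. Bmi1 thus exceeded Pcgf2 in both etomoxir and both MYCi libraries, and in 1 of the 2 siMat2a libraries, where the values were 1.28 and 0.889. In the Eed table the ratio was 0.287 ± 0.003 in Het and 1.01 ± 0.11 in EedKO, with 1.09 and 0.929 in the 2 null libraries. In the sorted cells the ratio was 0.265 and 0.251 at high ΔΨm and 0.313 and 0.347 at low ΔΨm, a smaller step without overlap. Only in the SAM table did the ratios of the doses overlap, at 0.648 ± 0.002 and 0.673 ± 0.038. These ratios are within-library descriptions and were not tested, and how many other gene pairs stood apart is not given.

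**Figure D2:**
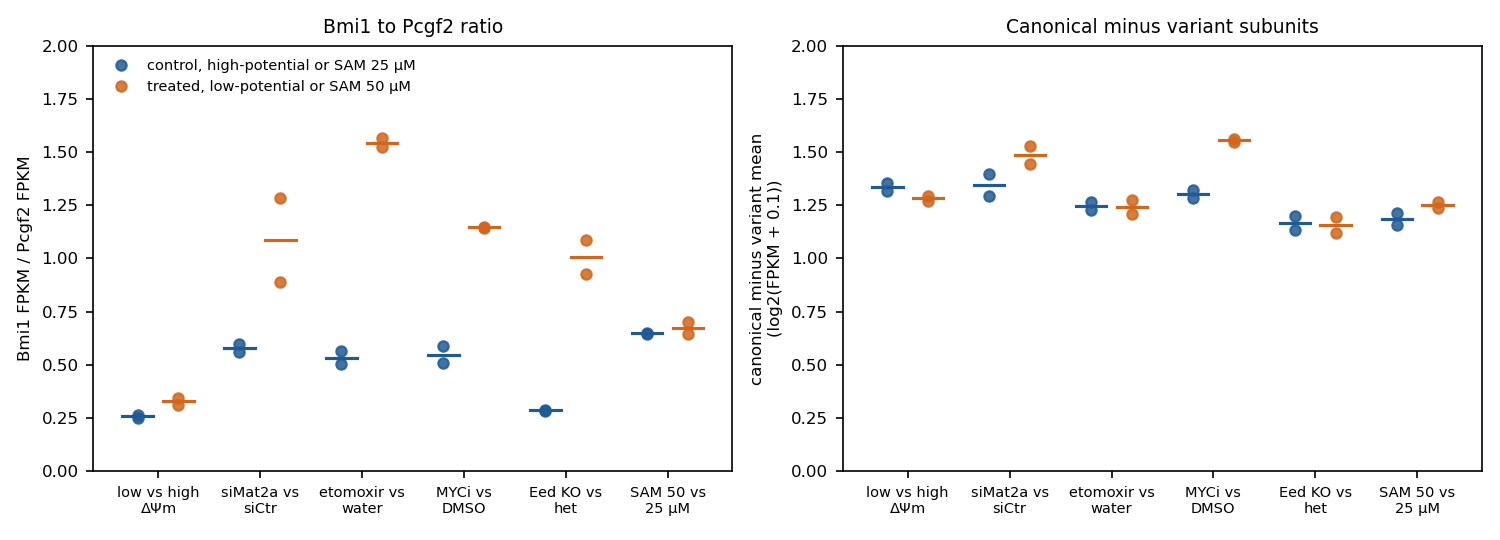
Left, ratio of Bmi1 to Pcgf2 FPKM; right, mean log2(FPKM + 0.1) of the canonical members Pcgf2, Bmi1 and Cbx7 minus that of the variant members Pcgf1, Pcgf3, Pcgf5, Pcgf6 and Kdm2b, in each library. Points are libraries and lines group means; the ratio of Bmi1 to Pcgf2 reaches 1.54 with etomoxir, and the canonical mean stands 1.55 above the variant mean with MYCi against 1.30 in DMSO.

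Pcgf2 had FPKM of 34.2 and 45.1 in water and 12.3 and 11.5 in etomoxir. In MYCi it had 12.9 and 15.8 against 34.9 and 34.6 in DMSO, and in siMat2a 17.5 and 13.1 against 36.4 and 37.1 in siCtr. In EedKO it had 16.3 and 16.2 against 24.7 and 26.3 in Het. No group overlapped its control. After scaling Pcgf2 was lower and passed the test in 5 of 6 comparisons, by 0.93 with etomoxir (SE 0.05, adjusted p = 0.000495), 0.76 in EedKO (SE 0.10, adjusted p = 0.00449), 0.52 in siMat2a (SE 0.08, adjusted p = 0.00935), 0.51 with MYCi (SE 0.05, adjusted p = 0.00253) and 0.29 at low ΔΨm (SE 0.04, adjusted p = 0.011). On the deposited scale the falls were 1.72, 0.65, 1.27 and 1.28 in the first 4, which all passed, and the value at low ΔΨm was -0.24 (SE 0.15, adjusted p = 0.315), which did not. After scaling the call in siMat2a was lost without siCtr replicate 2 (log2 fold changes of -0.59 to -0.41 over the libraries left out), and that at low ΔΨm without either low-ΔΨm library (-0.32 to -0.24). In EedKO the deposited-scale call was lost without Het replicate 2 (-0.69 to -0.60).

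Bmi1 had FPKM of 7.15 and 7.50 in Het and 17.7 and 15.1 in EedKO. This rise of 1.15 on the log2 scale (SE 0.12, adjusted p = 0.00344), or 1.03 after scaling (SE 0.16, adjusted p = 0.00812), passed the test on both scales and without each library in turn. In etomoxir Bmi1 had 18.8 and 17.9 against 17.2 and 25.5 in water, in MYCi 14.8 and 18.1 against 20.6 and 17.5 in DMSO, and in siMat2a 22.4 and 11.7 against 20.4 and 22.2 in siCtr, so that the deposited values overlapped in each. Deposited-scale differences of -0.19, -0.22 and -0.39 did not pass. After scaling Bmi1 was higher with etomoxir by 0.60 (SE 0.08, adjusted p = 0.00382) and with MYCi by 0.55 (SE 0.07, adjusted p = 0.00404), and without each library in turn, while the value in siMat2a was 0.36 (SE 0.16, adjusted p = 0.125). The direction of Bmi1 in these 3 comparisons thus depends on the scale. At low ΔΨm Bmi1 had 4.05 and 3.93 against 3.52 and 3.88, a difference of 0.11 (SE 0.14, adjusted p = 0.658) that did not pass.

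Cbx7, known as a main canonical subunit of ESCs, had FPKM of 13.3 and 14.4 in Het and 8.76 and 10.6 in EedKO. It was lower there by 0.51 (SE 0.13, adjusted p = 0.0364) and after scaling by 0.63 (SE 0.06, adjusted p = 0.0021). On the deposited scale that call was lost without either Het library and without EedKO replicate 1 (-0.65 to -0.37), and after scaling it held without each. Cbx7 was also lower on the deposited scale in siMat2a by 1.19, with etomoxir by 0.91 and with MYCi by 0.81, all past the test, but after scaling the values of -0.46 (SE 0.16, adjusted p = 0.0668), -0.14 (SE 0.09, adjusted p = 0.228) and -0.06 (SE 0.07, adjusted p = 0.454) did not pass. At low ΔΨm Cbx7 had 8.12 and 8.11 against 7.10 and 7.49 at high ΔΨm, a difference of 0.15 (SE 0.14, adjusted p = 0.502) that did not pass on either scale.

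Of the variant subunits, Pcgf6 and Kdm2b were lower most often. Pcgf6 had FPKM of 6.80 and 7.67 at high and 5.95 and 5.60 at low ΔΨm, 11.6 and 10.3 in siCtr and 4.56 and 2.85 in siMat2a, and 8.96 and 9.87 in Het and 6.40 and 7.27 in EedKO. It had 10.1 and 14.2 in water and 5.09 and 5.03 in etomoxir, and 12.9 and 12.2 in DMSO and 5.17 and 6.31 in MYCi. None of these groups overlapped. After scaling Pcgf6 passed as lower in 5 of 6 comparisons, by 0.37 at low ΔΨm (SE 0.04, adjusted p = 0.00593), 0.84 in siMat2a (SE 0.10, adjusted p = 0.00452), 0.45 with etomoxir (SE 0.06, adjusted p = 0.00417), 0.36 with MYCi (SE 0.05, adjusted p = 0.0048) and 0.57 in EedKO (SE 0.06, adjusted p = 0.00328). On the deposited scale it passed in 4, and the value at low ΔΨm was -0.32 (SE 0.14, adjusted p = 0.147). After scaling the low-ΔΨm call was lost without low-ΔΨm replicate 1, where the fold changes over the libraries left out were -0.37 to -0.32. On the deposited scale the call in EedKO was lost without either Het library and without EedKO replicate 1 (-0.55 to -0.37).

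Kdm2b had FPKM of 9.31 and 12.2 in water and 3.35 and 3.38 in etomoxir, 9.82 and 9.16 in DMSO and 2.89 and 3.56 in MYCi, and 11.5 and 12.4 in Het and 7.91 and 9.30 in EedKO. After scaling Kdm2b was lower by 0.85 with etomoxir (SE 0.05, adjusted p = 0.00058), 0.78 with MYCi (SE 0.06, adjusted p = 0.00137), 0.59 in EedKO (SE 0.06, adjusted p = 0.00228) and 0.27 at low ΔΨm (SE 0.04, adjusted p = 0.0137), where the FPKM were 5.83 and 5.49 against 6.14 and 7.09. In siMat2a the scaled value was -0.27 (SE 0.08, adjusted p = 0.0558), which did not pass, and the deposited one was -1.01 (SE 0.39, adjusted p = 0.0261). With high-ΔΨm replicate 1 left out the scaled low-ΔΨm call held, and without each other library it was lost (-0.29 to -0.22). The deposited-scale call in EedKO was lost without either Het library and without EedKO replicate 1 (-0.59 to -0.36). At low ΔΨm the deposited value was -0.22 (SE 0.14, adjusted p = 0.333). About 8.7% of the exonic bases of Kdm2b overlap other genes, which were counted without strand. Overlap with the NONCODE lncRNAs and repeats that were also counted was not examined.

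Pcgf1 encodes the PCGF partner of KDM2B. At low ΔΨm Pcgf1 had FPKM of 3.6 and 3.5 against 2.72 and 2.96, higher by 0.27 after scaling (SE 0.06, adjusted p = 0.0269) and by 0.31 on the deposited scale (SE 0.14, adjusted p = 0.141), and the scaled call was lost without any 1 library (0.24 to 0.33). In siMat2a it had 4.88 and 4.1 against 12.5 and 12.6 in siCtr, lower by 1.47 (SE 0.40, adjusted p = 0.00157) and by 0.73 after scaling (SE 0.12, adjusted p = 0.00987). With etomoxir it was lower by 1.21 and after scaling by 0.42 (SE 0.10, adjusted p = 0.0214), a call lost without H2O replicate 2 or ETO replicate 2 (-0.53 to -0.26). With MYCi it was lower by 1.08, and the scaled value of -0.32 (SE 0.11, adjusted p = 0.0588) did not pass. In EedKO Pcgf1 had 4.19 and 3.30 against 3.25 and 3.01, a difference of 0.24 (SE 0.15, adjusted p = 0.274).

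Pcgf3 and Pcgf5 encode the closely related pair. Pcgf3 had 4.71 and 4.47 at low against 3.62 and 4.06 at high ΔΨm, higher by 0.21 after scaling (SE 0.04, adjusted p = 0.0285), a call lost without any 1 library (0.20 to 0.25) and not reached on the deposited scale (0.25, SE 0.14, adjusted p = 0.247). It was lower on the deposited scale with etomoxir by 0.85 and with MYCi by 0.94, but after scaling the values of -0.06 (SE 0.06) and -0.18 (SE 0.06) had adjusted p-values of 0.386 and 0.0533. In EedKO Pcgf3 had a deposited-scale value of 0.28 (SE 0.09, adjusted p = 0.0679). Pcgf5 had FPKM of 0.660 and 0.696 in etomoxir against 0.447 and 0.682 in water, higher by 0.94 after scaling (SE 0.16, adjusted p = 0.00726) and by 0.25 on the deposited scale (SE 0.29, adjusted p = 0.451). In EedKO it had 2.51 and 3.15 against 2.07 and 2.01, higher by 0.33 after scaling (SE 0.10, adjusted p = 0.0446), a call that held only with EedKO replicate 1 left out (0.25 to 0.42), and by 0.45 on the deposited scale (SE 0.15, adjusted p = 0.0785).

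**Figure D3:**
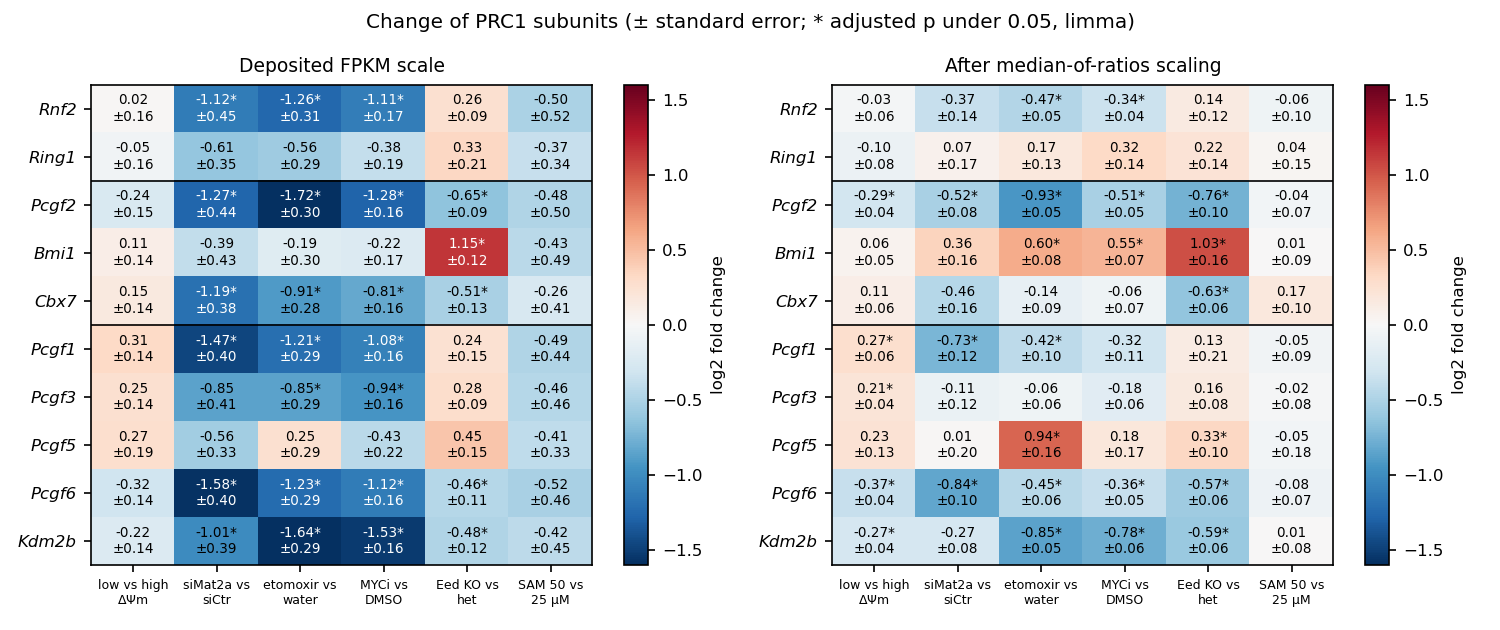
Log2 fold change of each member (rows) in the 6 comparisons (columns), as colour and printed value with its standard error, on the deposited FPKM scale (left) and after median-of-ratios scaling (right), from limma on log2(FPKM + 0.1). An asterisk marks an adjusted p under 0.05; after scaling Pcgf2 and Pcgf6 are lower with an asterisk in 5 of 6 columns, and Bmi1 is higher with one in 3.

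Counted by comparison, with 2 scales and the share of all tested genes called in the same direction as background, the members were as follows. Counts with a library left out have no such share beside them, and the number of all genes called changed with each library left out. At low ΔΨm 0 of 10 were called on the deposited scale, with limma at an unadjusted p under 0.05 giving 1 higher and 1 lower, where 14% of all tested genes were called higher and 6.45% lower. After scaling 2 were higher (Pcgf1, Pcgf3; background 19.4%) and 3 lower (Pcgf2, Pcgf6, Kdm2b; background 17%), and without low-ΔΨm replicate 1 and replicate 2 the lower count was 0 and 1, while the higher count was 0 without any 1 library. In siMat2a 6 were lower (Rnf2, Pcgf2, Cbx7, Pcgf1, Pcgf6, Kdm2b; background 36.8%) and 0 higher (background 13.1%). Leaving out siCtr replicate 1 or 2 lowered this count of 6, and leaving out siMat2a replicate 1 raised it. The number of all genes called lower moved the same way, so that these moves are read as no result about PRC1. After scaling 3 were lower (Pcgf2, Pcgf1, Pcgf6; background 19.8%) and 0 higher (background 23%), with 6 lower without siMat2a replicate 1 and 1 higher without siMat2a replicate 2.

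With etomoxir 7 were lower (Rnf2, Pcgf2, Cbx7, Pcgf1, Pcgf3, Pcgf6, Kdm2b; background 51.3%) and 0 higher (background 13.9%). Leaving out ETO replicate 1 or 2 lowered the count of 7, and fewer of all genes were then called lower. After scaling 5 were lower (Rnf2, Pcgf2, Pcgf1, Pcgf6, Kdm2b; background 31.2%) and 2 higher (Bmi1, Pcgf5; background 30.9%). With MYCi 7 were lower (Rnf2, Pcgf2, Cbx7, Pcgf1, Pcgf3, Pcgf6, Kdm2b; background 57.8%) and 0 higher (background 7.89%). After scaling 4 were lower (Rnf2, Pcgf2, Pcgf6, Kdm2b; background 28.4%) and 1 higher (Bmi1; background 25.4%). The count of 7 members lower in either treatment stood against a majority of all genes and is read as no result about PRC1.

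In EedKO 4 were lower (Pcgf2, Cbx7, Pcgf6, Kdm2b; background 12.1%) and 1 higher (Bmi1; background 24.2%). Leaving out Het replicate 1, Het replicate 2 or EedKO replicate 1 lowered the count of 4, and fewer of all genes were then called lower. Without EedKO replicate 1 the count of members higher rose, while fewer of all genes were called higher. After scaling the 4 lower held (background 22.5%) without each library in turn, and 2 were higher (Bmi1, Pcgf5; background 25.3%), which became 1 without Het replicate 1 or 2 and 4 without EedKO replicate 2. At 50 against 25 µM SAM 0 members were called on either scale in the fit without a replicate block, and limma at an unadjusted p under 0.05 gave 0 as well, where 0.389% of all tested genes were called higher and 0.493% lower on the deposited scale. After scaling 0% of all tested genes were called in either direction, with 1449 at an unadjusted p under 0.05. Deposited-scale values there ran from -0.52 (Pcgf6, SE 0.46) to -0.26 (Cbx7, SE 0.41). The libraries of both doses overlapped for the members other than Pcgf1, at 7.64 and 6.65 against 5.96 and 4.29, and Pcgf6, at 12.3 and 9.57 against 8.93 and 6.36. The median of all tested genes was itself -0.40 on the deposited scale. After scaling Pcgf1 had -0.05 (SE 0.09) and Pcgf6 -0.08 (SE 0.07), so that their separation is read as no result about these members. Over all 10 members the median log2 fold change after scaling was -0.32 in siMat2a, -0.28 with etomoxir, -0.25 with MYCi, 0.14 in EedKO, 0.02 at low ΔΨm and -0.03 in the SAM table, beside medians over all tested genes between -0.01 and 0.05.

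The makeup of the PCGF transcripts holds the same shift as the ratio of Bmi1 to Pcgf2. Both rest on the same values, so that the shares are no separate support. Of the summed FPKM of the 6 Pcgf genes, Pcgf2 made up 40.1% ± 1.36 (SD, n = 2) in water and 24.5% ± 0.15 in etomoxir, and Bmi1 21.4% ± 1.08 and 37.8% ± 0.44. In DMSO and MYCi, Pcgf2 made up 38.7% ± 1.98 and 29.7% ± 0.31, and Bmi1 21.1% ± 1.12 and 34.0% ± 0.23. In siCtr and siMat2a, Pcgf2 made up 38.1% ± 0.24 and 31.8% ± 3.98, and Bmi1 22.1% ± 1.13 and 34.0% ± 4.56. In Het and EedKO, Pcgf2 made up 43.6% ± 0.40 and 27.3% ± 0.39, and Bmi1 12.5% ± 0.02 and 27.5% ± 2.65. Both shares stood apart between the groups in each of these tables.
At low ΔΨm Pcgf2 was at 39.9% ± 1.49 against 44.5% ± 0.67 and Bmi1 at 13.1% ± 0.46 against 11.5% ± 0.24. Pcgf6 was at 19.0% ± 0.26 against 22.4% ± 0.13, Pcgf3 at 15.1% ± 0.28 against 11.9% ± 0.10 and Pcgf1 at 11.7% ± 0.43 against 8.80% ± 0.27. The libraries of low and high ΔΨm did not overlap in any of these shares. At 50 against 25 µM SAM, Pcgf2 was at 35.9% ± 0.05 against 36.2% ± 0.50 and Bmi1 at 24.2% ± 1.39 against 23.4% ± 0.38. Pcgf5 had the smallest share in every group, at most 4.75% ± 0.84 in EedKO.

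**Figure D4:**
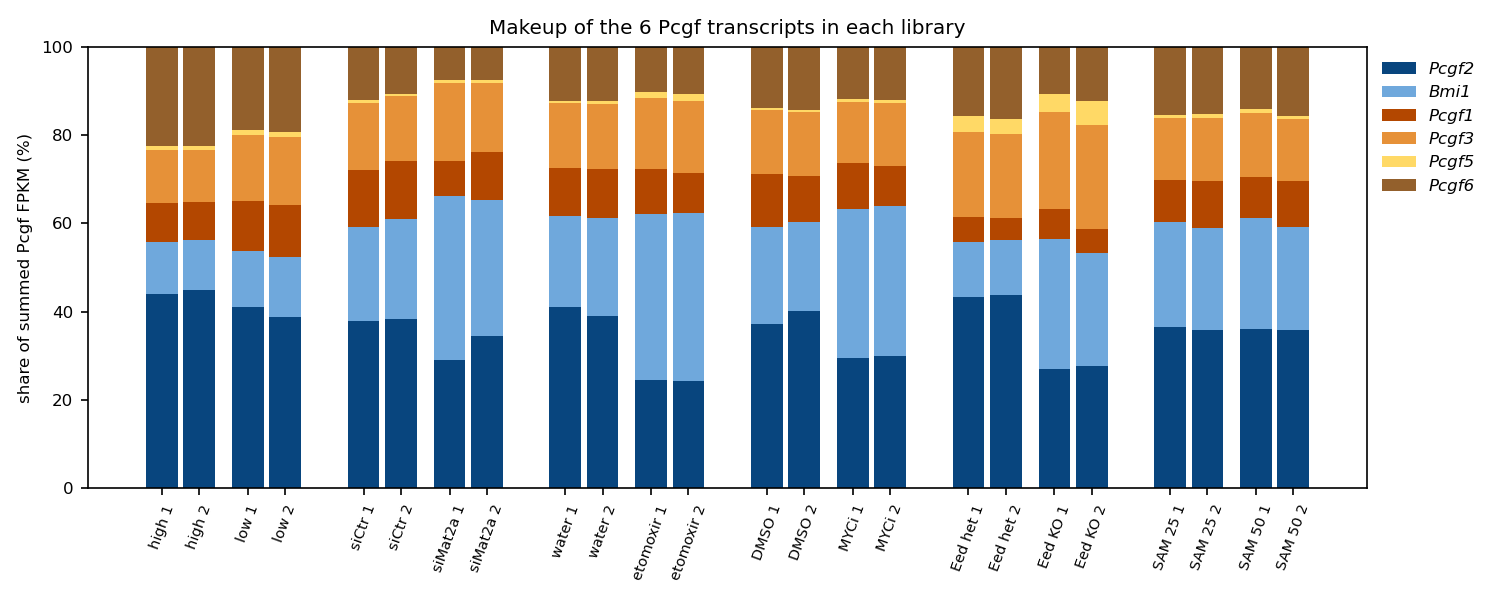
Share of each Pcgf gene in the summed FPKM of the 6 Pcgf genes (percent, stacked to 100) in each of the 24 libraries, grouped by table, with the canonical genes Pcgf2 and Bmi1 in blue and the variant genes in orange, yellow and brown. With etomoxir the share of Pcgf2 is 24.5% and that of Bmi1 37.8%, against 40.1% and 21.4% in water.

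Canonical was next set against variant PRC1 as a whole. The mean log2(FPKM + 0.1) of Pcgf2, Bmi1 and Cbx7 stood above that of the 5 variant members by 1.25 ± 0.02 (SD, n = 2) in water and 1.24 ± 0.05 in etomoxir, by 1.17 ± 0.05 in Het and 1.16 ± 0.05 in EedKO, and by 1.33 ± 0.03 at high and 1.28 ± 0.01 at low ΔΨm. In siCtr and siMat2a it was 1.34 ± 0.07 and 1.48 ± 0.06, and at 25 and 50 µM SAM 1.18 ± 0.04 and 1.25 ± 0.02. With MYCi it was 1.55 ± 0.01 against 1.30 ± 0.03 in DMSO, a change of 0.25. Leaving out Bmi1 brought that change to -0.02 and leaving out Pcgf2 to 0.51, and with etomoxir the same steps gave -0.38 and 0.38 in place of -0.01. The libraries of the groups overlapped in the FAOi and Eed tables and stood apart in the other 4. The mean of the 3 canonical members thus rests on single members, Pcgf2 and Bmi1 pulling it in opposite directions. A score over chosen members gets no test.

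Among the CBX paralogues, which compete with RYBP and YAF2 for the RING subunit, Cbx8 moved apart from Cbx7. In EedKO Cbx8 was higher by 1.51 (SE 0.20, adjusted p = 0.0069), Cbx6 was lower by 0.55 (SE 0.15, adjusted p = 0.042), and Cbx2 had 0.30 (SE 0.12, adjusted p = 0.121). Of the summed FPKM of Cbx2, Cbx6, Cbx7 and Cbx8, Cbx7 made up 49.6% ± 0.11 (SD, n = 2) in Het and 39.3% ± 0.21 in EedKO. Cbx8 went from 1.10% ± 0.22 to 4.29% ± 0.29. Cbx7 had a smaller share in other control groups, at 18.5% in siCtr, 18.2% in water, 19.5% in DMSO and 37.9% at high ΔΨm. In siCtr, water and DMSO it stood below Cbx6 (43.6%, 47.2% and 47.2%) and Cbx2 (35.8%, 32.8% and 31.5%). With etomoxir Cbx8 was higher by 0.82 (SE 0.29, adjusted p = 0.00859) and after scaling by 1.5 (SE 0.17, adjusted p = 0.00212), although it had a mean FPKM under 1 in both groups. Cbx2 was lower by 1.22 (after scaling 0.44) and Cbx6 by 0.95 (after scaling 0.16), past the test on both scales. After scaling Cbx8 was also higher with MYCi by 0.56 (SE 0.15, adjusted p = 0.0343) and in siMat2a by 0.76 (SE 0.18, adjusted p = 0.0272), which the deposited scale did not show (-0.08 and 0.12). At low ΔΨm Cbx2 was higher after scaling by 0.35 (SE 0.05, adjusted p = 0.0106), with 0.40 (SE 0.14, adjusted p = 0.0707) on the deposited scale.

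Rybp and Yaf2 encode the subunits that take the place of CBX in variant PRC1. Yaf2 was higher at low ΔΨm by 0.49 (SE 0.15, adjusted p = 0.0388) and in EedKO by 0.99 (SE 0.11, adjusted p = 0.00443), and lower with MYCi by 1.19 and after scaling by 0.44 (SE 0.06, adjusted p = 0.0048). Rybp was lower in EedKO by 0.41 (SE 0.09, adjusted p = 0.0226), with etomoxir by 1.0 and after scaling by 0.21 (SE 0.07, adjusted p = 0.0492), and with MYCi after scaling by 0.28 (SE 0.06, adjusted p = 0.0147).

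Of 8 other canonical partners (Cbx2, Cbx6, Cbx8, the PHC genes, Scmh1 and Scml2), 2 were higher (background 24.2%) and 2 lower (background 12.1%) in EedKO on the deposited scale. On that scale 1 was higher (background 13.9%) and 3 lower (background 51.3%) with etomoxir, 4 were lower with MYCi (background 57.8%), 2 were lower in siMat2a (background 36.8%) and 1 was higher at low ΔΨm (background 14%). The counts of genes lower in the 3 treatments lay below these background shares. Phc1, the main polyhomeotic gene of ESCs, was lower by 1.96 with etomoxir, 1.43 with MYCi and 1.29 in siMat2a, and after scaling by 1.17 (SE 0.05, adjusted p = 0.000348), 0.66 (SE 0.07, adjusted p = 0.00254) and 0.54 (SE 0.08, adjusted p = 0.00686). In EedKO Phc1 was lower by 1.52 (SE 0.09, adjusted p = 0.00142) and Scml2 was higher by 2.61 (SE 0.11, adjusted p = 0.000956). Phc2 was higher at low ΔΨm by 0.49 (SE 0.14, adjusted p = 0.0263). After scaling 4 of the 8 were higher (background 30.9%) and 3 lower (background 31.2%) with etomoxir and 4 higher (background 25.4%) and 1 lower (background 28.4%) with MYCi. In siMat2a 2 were then higher (background 23%) and 2 lower (background 19.8%). In EedKO 2 were higher (background 25.3%) and 3 lower (background 22.5%), and at low ΔΨm 3 higher (background 19.4%) and 1 lower (background 17%).

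Of the 22 other variant partners, 19 were lower with etomoxir (background 51.3%), all 22 with MYCi (background 57.8%) and 12 in siMat2a (background 36.8%) on the deposited scale. After scaling 15 were lower with etomoxir (background 31.2%), 16 with MYCi (background 28.4%) and 9 in siMat2a (background 19.8%), while 3, 2 and 0 were higher (background 30.9%, 25.4% and 23%). In EedKO 5 were higher (background 24.2%) and 9 lower (background 12.1%) on the deposited scale, and at low ΔΨm 1 was higher (background 14%). After scaling 5 were higher (background 25.3%) and 12 lower (background 22.5%) in EedKO. At low ΔΨm 3 were then higher (background 19.4%) and 1 lower (background 17%). Cbx3, an HP1 gene whose product is part of PCGF6 complexes, was lower after scaling by 1.48 with etomoxir (SE 0.06, adjusted p = 0.000311), 1.11 in siMat2a (SE 0.21, adjusted p = 0.015) and 0.85 with MYCi (SE 0.05, adjusted p = 0.00114). L3mbtl2, of the same complexes, was lower with MYCi by 0.67 after scaling (SE 0.05, adjusted p = 0.00141). After scaling Wdr5 and Hdac1 were lower with etomoxir by 0.89 and 1.02, and Auts2, of PCGF3 and PCGF5 complexes, was lower by 0.63 in siMat2a. In EedKO Bcorl1, of PCGF1 complexes, was higher by 1.48 (SE 0.13, adjusted p = 0.00252) and Hdac1 by 1.35 (SE 0.15, adjusted p = 0.00445). Cbx3 and Hdac1 have close copies in the mouse genome among which the authors' fractional counting could split fragments, so that their values are uncertain. The median of the 22 after scaling was -0.49 with etomoxir and -0.35 with MYCi, beside 0.05 and 0.03 over all genes.

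Genes around the complex were counted for context. Of the 4 core genes of PRC2, 4 were lower with etomoxir, 4 with MYCi, 4 in siMat2a and 1, Eed itself, in EedKO on the deposited scale, where 51.3%, 57.8%, 36.8% and 12.1% of all tested genes were lower. After scaling 4, 3, 3 and 1 were, with backgrounds of 31.2%, 28.4%, 19.8% and 22.5%. Ezh2, its main methyltransferase, was lower after scaling by 0.68 with etomoxir, 0.48 with MYCi and 0.56 in siMat2a. Of 6 genes for removal of the H2A ubiquitin, 4 were lower with etomoxir, 5 with MYCi and 1 in EedKO, against the same deposited-scale backgrounds of 51.3%, 57.8% and 12.1%. After scaling 2, 2 and 4 were lower (background 31.2%, 28.4% and 22.5%) and 1, 3 and 0 higher (background 30.9%, 25.4% and 25.3%). Bap1, its main deubiquitinase, was lower after scaling with MYCi by 0.52 (SE 0.04, adjusted p = 0.0015).

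Whether a member's change differed between treatments was tested as a contrast of within-table changes, in 1 fit of both tables, which share no libraries. Between etomoxir and MYCi 0 of 10 members differed on the deposited scale, where 1.65% of all genes did. After scaling 2 did (background 18.7%), Pcgf2 lower by a further 0.39 with etomoxir (SE 0.07, adjusted p = 0.0136) and Pcgf5 higher by 0.78 (SE 0.21, adjusted p = 0.0478). Between low ΔΨm and etomoxir 7 differed on the deposited scale (background 64.8%) and 7 after scaling (background 52.9%), and between low ΔΨm and MYCi 8 (background 69.8%) and 6 (background 43.4%). After scaling Kdm2b fell less at low ΔΨm than with etomoxir by 0.47 (SE 0.06, adjusted p = 0.000819) and than with MYCi by 0.43 (SE 0.06, adjusted p = 0.00247), while Bmi1 had a lower change at low ΔΨm by 0.66 (SE 0.09, adjusted p = 0.00124) and 0.57 (SE 0.08, adjusted p = 0.00277). The scaled contrasts of Pcgf6 were -0.04 (SE 0.06, adjusted p = 0.618) and -0.08 (SE 0.05, adjusted p = 0.248). Between siMat2a and EedKO 6 differed on the deposited scale (background 41.6%) and 2 after scaling (background 41.9%), Pcgf1 by -0.89 (SE 0.27, adjusted p = 0.0361) and Kdm2b by 0.29 (SE 0.09, adjusted p = 0.0336). For Bmi1 this contrast was -1.54 (SE 0.42, adjusted p = 0.00857), and after scaling -0.71 (SE 0.25, adjusted p = 0.0609).

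Markers of other cell types moved with some of these results. In the Eed table the summed FPKM of 6 trophectoderm markers was 44.0 to 50 in Het and 155 to 224 in EedKO. That of 6 primitive endoderm markers was 5.41 to 5.84 and 28.6 to 29.0. All 6 of either list were called higher (background 24.2%). The summed FPKM of the 7 naive markers was 426 to 456 in Het and 421 to 488 in EedKO, but these markers moved both ways. On the deposited scale 2 were called higher (background 24.2%) and 3 lower (background 12.1%). Mean FPKM rose for Nanog (104 in Het and 174 in EedKO) and Tfcp2l1 (17.0 and 37.6). It fell for Sox2 (77.2 and 52.0), Zfp42 (56.4 and 38.4) and Esrrb (49.4 and 31.4). The sum of 8 fibroblast markers was 7.34 to 8.70 in Het and 3.98 to 4.77 in EedKO, but its markers moved both ways. Of the 5 that passed the filter on low values, Col1a1 (mean FPKM 6.24 in Het and 0.666 in EedKO) and Col1a2 (0.400 and 0.0457) were lower, and Thy1 (0.231 and 1.58), Fbn1 (1.07 and 1.71) and Postn (0.0145 and 0.324) were higher, with Dcn, Lum and Col3a1 near 0.
With etomoxir the trophectoderm sum was 24.9 to 26.4 against 8.47 to 10.1 in water. Krt8 (mean FPKM 1.57 in water and 9.28 with etomoxir) and Krt18 (1.4 and 10.2) were among the 4 of 5 tested markers that were higher (background 13.9%). Cdx2, the defining transcription factor of that lineage, was lower (3.67 and 0.148). The primitive endoderm sum was 3.76 to 3.97 with etomoxir against 0.760 to 0.821 in water, with 4 of 4 tested markers higher (background 13.9%). The naive sum was 302 to 322 against 821 to 1157. The naive sum was 365 to 425 in MYCi against 866 to 975 in DMSO, and 339 to 551 in siMat2a against 926 to 986 in siCtr. These naive sums are on the deposited scale, where the median gene was lower too. After scaling the median log2 fold change of the 7 naive markers was -0.83 with etomoxir, -0.37 with MYCi and -0.41 in siMat2a. The medians of all tested genes were 0.05, 0.03 and 0.04 in turn. In siMat2a the fibroblast sum was 1.24 to 2.01 against 0.357 to 0.430 in siCtr. All 4 of 4 tested markers were higher on both scales (background 13.1%, after scaling 23%). The primitive endoderm sum there was 1.55 to 2.57 against 0.905 to 0.949, with 2 of 5 higher (background 13.1%). At low ΔΨm the primitive endoderm sum was 0.871 to 0.947 against 0.436 to 0.638, with 2 of 5 higher (background 14%). A marker that passed the filter through 1 group alone had to differ, so that these counts describe the libraries. The part of these cells in the values of the PRC1 members was not tested.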

How the data were processed

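RNA was measured in 24 libraries of mouse naive ESCs, 12 groups of 2, in 6 tables that share no library and were normalized separately. Per the labels and the study's methods, ribosomal RNA was depleted from total RNA and stranded libraries were made. Per those methods the authors used Trim Galore and cutadapt for trimming and TopHat2 2.1.1 for alignment to the mouse genome with ERCC spike-in sequences. Duplicates were removed with SAMtools 1.9. Fragments were counted by featureCounts over Ensembl genes, NONCODE lncRNAs and repeats (HOMER 4.10). A fragment over several such features was split among them, which can lower the value of a gene. The counting was without strand. Reads from overlapping genes on opposite strands can therefore not be told apart. The deposited values are FPKM, computed by the authors with edgeR. Depth was estimated from the FPKM steps, at 27.2 to 64.2 M fragments, and intervals from it cover counting error only.

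From these values, log2(FPKM + 0.1) of the Ensembl genes that reached 0.1 FPKM in 2 or more libraries of the table was fitted with limma 3.58.1 in R 4.3.3 (group means, intensity trend, two-sided, Benjamini-Hochberg over all genes tested, threshold 0.05). A fold change on this scale understates the change of low genes. Since the deposited values do not hold total RNA per cell, each fit was repeated after median-of-ratios scaling. The study measured total RNA per cell in the sorted fractions and reports a low level in low-ΔΨm cells. Neither scale used that measurement, so that the values at low ΔΨm are not levels per cell. Differences between changes were tested as contrasts in 1 fit of 2 tables. Alternatives were a pseudocount of 1, no filter, the replicate number as a block, an ERCC factor, and each library left out. The script was tested on simulated data. All 10 members are named, and of the partner lists those called with the largest changes, together with Cbx2, Cbx6, Cbx8, Rybp and Yaf2. The members and lists were chosen with earlier results of these data known. Of the canonical partner list, 1 gene is not reported here and was left out of every list count, share and list mean. Promoter windows are those of RefSeq (GRCm38.p6).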

Additional observations from a re-analysis of the deposited data

Results flagged for a closer look

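The changes of some members differed between treatments by the contrast of log2 changes, on the deposited scale. Since the median gene was lower with etomoxir, MYCi and siMat2a, the value after median-of-ratios scaling stands beside each. Between low ΔΨm and etomoxir, the change at low ΔΨm was higher for Rnf2 by 1.28 (scaled 0.32), Pcgf2 by 1.48 (scaled 0.52), Cbx7 by 1.06 (scaled 0.12), Pcgf1 by 1.52 (scaled 0.57), Pcgf3 by 1.10 (scaled 0.15), Pcgf6 by 0.92 (scaled -0.04) and Kdm2b by 1.42 (scaled 0.47). After scaling those of Rnf2, Pcgf2, Pcgf1 and Kdm2b passed, and those of Cbx7, Pcgf3 and Pcgf6 did not.

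Between low ΔΨm and MYCi, the change at low ΔΨm was higher for Rnf2 by 1.13 (scaled 0.23), Pcgf2 by 1.04 (scaled 0.14), Cbx7 by 0.97 (scaled 0.09), Pcgf1 by 1.39 (scaled 0.51), Pcgf3 by 1.2 (scaled 0.31), Pcgf5 by 0.69 (scaled -0.02), Pcgf6 by 0.81 (scaled -0.08) and Kdm2b by 1.31 (scaled 0.43). After scaling those of Rnf2, Pcgf1, Pcgf3 and Kdm2b passed.

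Between siMat2a and EedKO, the change in siMat2a minus that in EedKO was -1.38 for Rnf2 (scaled -0.54), -1.54 for Bmi1 (scaled -0.71), -1.71 for Pcgf1 (scaled -0.89), -1.13 for Pcgf3 (scaled -0.30), -1.01 for Pcgf5 (scaled -0.35) and -1.12 for Pcgf6 (scaled -0.29). After scaling only that of Pcgf1 among these 6 passed.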

How the results depend on the processing

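With 2 libraries a group, single libraries decided many calls, and of 830 tested values recomputed under an alternative, 663 kept direction and side of the threshold, 89 no longer passed, 38 newly passed and 40 changed sign. The cause was not tested. Ring1 and Pcgf5, with 132 and 193 fragments in their poorest library, limit what can be seen of them. Scaling by median of ratios changed the counts of members called at low ΔΨm from 0 higher and 0 lower to 2 and 3, in siMat2a from 6 lower to 3, with etomoxir from 0 higher to 2, with MYCi from 0 higher and 7 lower to 1 and 4, and in EedKO from 1 higher to 2. It changed the count of members whose change differs from 0 to 2 between etomoxir and MYCi and from 6 to 2 between siMat2a and EedKO. Scaling reversed Rnf2 at low ΔΨm (-0.025), Ring1 in siMat2a (0.069), etomoxir (0.17), MYCi (0.32) and SAM (0.036), Bmi1 in siMat2a (0.36), etomoxir (0.60), MYCi (0.55) and SAM (0.0084), Pcgf5 in siMat2a (0.015) and MYCi (0.18), and Cbx7 (0.17) and Kdm2b (0.011) in SAM. Of the contrasts it reversed low ΔΨm minus etomoxir for Ring1 (-0.38), Bmi1 (-0.66), Pcgf5 (-0.81) and Pcgf6 (-0.038), low ΔΨm minus MYCi for Ring1 (-0.49), Bmi1 (-0.57), Pcgf5 (-0.018) and Pcgf6 (-0.084), and siMat2a minus EedKO for Pcgf2 (0.21), Cbx7 (0.13) and Kdm2b (0.29). A pseudocount of 1 reversed Pcgf5 in low ΔΨm minus etomoxir (-0.022). Without a filter 0 members were lower in siMat2a, where 342 of all 42261 tested genes were. In EedKO 1 was, where 2518 of all 43306 were.

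The same-numbered libraries share only a number. Their deviations from the group means correlated at -0.10 to 0.07 over genes in 5 tables and at 0.30 in the SAM table, with 2 pairs a table, so that the numbers were not taken as pairs. With the replicate block 3 members were lower in siMat2a, as were 5545 of all 24938 tested genes. At the higher SAM dose 7 were lower, where 0 were called without the block. There 12282 of all 23911 tested genes were lower, so that the 7 are read as no result about PRC1. In EedKO 2 were higher, as were 7298 of all 27015 tested genes. With scaling and the replicate block 0 were higher at low ΔΨm (3195 of all 21086 genes) and 1 in EedKO (7017 of all 27015). A crossed pairing of the etomoxir table, chosen after seeing the data, gave 7 lower, where 12491 of all 25421 genes were lower.

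Over the libraries left out in turn, the members lower numbered 0 to 10 in siMat2a, 0 to 9 with etomoxir and 0 to 4 in EedKO, and those higher 1 to 2 in EedKO. After scaling, the counts higher and lower changed at low ΔΨm and in siMat2a, and the count higher in EedKO. Signs changed within the ranges of Rnf2 (-0.11 to 0.16, scaled -0.085 to 0.033) and Ring1 (-0.20 to 0.092) at low ΔΨm, Bmi1 in siMat2a (-0.86 to 0.074) and etomoxir (-0.48 to 0.092), Pcgf5 in etomoxir (-0.0068 to 0.51), and after scaling Ring1 (-0.044 to 0.27), Pcgf3 (-0.20 to 0.077) and Pcgf5 (-0.068 to 0.14) in siMat2a, Pcgf3 in etomoxir (-0.15 to 0.0069) and Pcgf1 in EedKO (-0.10 to 0.47).

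The change of canonical minus variant level with a pseudocount of 1 was -0.014 at low ΔΨm, 0.059 in siMat2a, 0.16 with MYCi and 0.0093 in SAM, and with the partner lists added 0.039 at low ΔΨm, 0.27 in siMat2a, 0.34 with etomoxir, 0.37 with MYCi and -0.19 in EedKO. With 1 member left out in turn it ran from -0.15 to 0.071 at low ΔΨm, -0.14 to 0.30 in siMat2a, -0.38 to 0.38 with etomoxir, -0.024 to 0.51 with MYCi, -0.59 to 0.31 in EedKO and 0.0038 to 0.11 in SAM.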
